A study of Mus musculus with 18 samples.

Results

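The histone marks H3K27me2 and H3K36me2 were compared along the genome of untreated E14 cells, which are pluripotent stem cells from a mouse embryo. The comparison used 4 of the 18 libraries of the series, chosen by their labels: 2 replicates of H3K27me2 and 2 of H3K36me2, from cells that received neither drug nor solvent and without a spike-in. All cells were grown on gelatin in 2i/LIF medium, which holds them in the naive state through the cytokine LIF with a MEK and a GSK3 inhibitor, and the medium carried arginine and lysine in light, medium or heavy isotope forms. The antibodies were monoclonal, from Cell Signalling for H3K27me2 and from Abcam for H3K36me2. Libraries of H3K27me1, H3K27me3 and H3K36me3 from the same untreated cells (2 of each) served to describe the places where the 2 marks part. H3K36me2 libraries after 7 days of DMSO (2 libraries) or of 10 µM EPZ-6438, an EZH2 inhibitor (2 libraries), were used as H3K36me2 data of their own. The labels do not say whether replicates came from separate cultures, so p-values measure the spread between these libraries, which may be technical.

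Lysine 27 is methylated by PRC2, the Polycomb complex whose catalytic subunits are EZH2 and EZH1, and its trimethylated form marks silenced developmental genes. Dimethylated lysine 27 covers much of the rest of the embryonic stem cell genome outside both Polycomb centres and strongly transcribed genes. Lysine 36 is dimethylated mainly by the NSD enzymes, in genes and in broad intergenic stretches, and trimethylated by SETD2, which travels with elongating RNA polymerase. PRC2 acts poorly on a histone tail already methylated at lysine 36, so di- and trimethylation of these lysines are often studied together.

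Each library was expressed as a level, the reads per 1 kb window of a feature divided by the mean of that library over the 19 autosomes, so that a level of 1 is the autosomal mean. The log2 ratio below is the difference between the marks in mean log2(level + 0.1), and a positive value means that H3K27me2 was higher relative to its own mean. It says nothing of which mark was more abundant in the cell. Features were promoters (1 kb on each side of the start site, 16456 protein-coding genes), gene bodies of at least 3 kb (17642) and intergenic 10 kb bins that overlap no RefSeq gene of any kind (103178). A gene with several listed starts was read at the start nearest its 5′ end, and its other starts were not measured as promoters. A feature was tested where its mean level over the 4 libraries was at least 0.1, which left 15912 promoters, 17176 gene bodies and 94946 bins. It was called by limma at a Benjamini-Hochberg adjusted p under 0.05, and as parted 2-fold where the log2 ratio also reached 1 in size. The H3K27me2 libraries averaged 19.5 and 24.3 reads per window and the H3K36me2 libraries 27 and 16.2. Over gene bodies of pluripotency factors H3K36me3 had median levels of 6.18 and 6.42, against 2.11 and 2.09 over all gene bodies tested and 0.39 and 0.49 over 7 fibroblast genes.

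Of the promoters named below for the size of their log2 ratio, those toward H3K36me2 held 3 to 36 CG dinucleotides around the start. Those toward H3K27me2 held 0 to 2. Of these promoters 4 are shown for that reason, 2 with more H3K36me2 followed by 2 with more H3K27me2. The ranges leave out promoters named as members of gene lists, and they do not hold for all promoters. In the decile of promoters richest in CG (median 40), 126 were called toward H3K27me2 and 630 toward H3K36me2. Pou5f1 encodes the pluripotency factor OCT4 (chr17:35505782-35506081, + strand), and Ncor1 a nuclear receptor corepressor (chr11:62457283-62457582, - strand). Olfr209 encodes an olfactory receptor (chr16:59362167-59362466, - strand) and Prss58 a serine protease (chr6:40900338-40900637, - strand). The sequences are RefSeq's for GRCm38.p6, from 250 bases before to 50 bases after the start site, 5′ to 3′, with each CG in capitals. They hold 11, 36, 0 and 0 CG.
Pou5f1: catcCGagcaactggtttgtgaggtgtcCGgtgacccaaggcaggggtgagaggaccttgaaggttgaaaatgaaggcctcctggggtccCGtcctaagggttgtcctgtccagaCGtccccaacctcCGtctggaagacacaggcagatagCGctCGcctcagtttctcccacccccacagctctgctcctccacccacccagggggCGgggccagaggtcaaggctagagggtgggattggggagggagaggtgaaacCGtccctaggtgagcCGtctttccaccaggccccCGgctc
Ncor1: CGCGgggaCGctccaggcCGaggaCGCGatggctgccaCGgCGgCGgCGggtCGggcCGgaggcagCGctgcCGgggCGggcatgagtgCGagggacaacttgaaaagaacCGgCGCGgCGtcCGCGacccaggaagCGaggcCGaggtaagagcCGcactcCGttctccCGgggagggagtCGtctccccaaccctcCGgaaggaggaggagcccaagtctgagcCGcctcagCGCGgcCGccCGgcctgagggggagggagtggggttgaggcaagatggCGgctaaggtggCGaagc
Olfr209: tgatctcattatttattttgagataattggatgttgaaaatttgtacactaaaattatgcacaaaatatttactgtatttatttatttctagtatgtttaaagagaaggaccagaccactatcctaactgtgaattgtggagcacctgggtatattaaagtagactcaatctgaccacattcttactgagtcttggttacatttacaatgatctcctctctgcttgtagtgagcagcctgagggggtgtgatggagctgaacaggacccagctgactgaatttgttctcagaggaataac
Prss58: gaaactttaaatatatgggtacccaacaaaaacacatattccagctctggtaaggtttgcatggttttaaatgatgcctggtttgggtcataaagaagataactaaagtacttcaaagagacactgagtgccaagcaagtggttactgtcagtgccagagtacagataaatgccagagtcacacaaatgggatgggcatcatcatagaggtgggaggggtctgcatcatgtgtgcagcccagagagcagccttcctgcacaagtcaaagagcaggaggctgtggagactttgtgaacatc

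The marks followed each other across the genome but parted toward H3K36me2 at promoters and toward H3K27me2 between genes. Over gene bodies the median lay only slightly toward H3K36me2, and that direction did not hold under the background subtraction given below. Spearman's rho between the mean levels of the marks was 0.62 across promoters, 0.82 across gene bodies and 0.87 across intergenic bins, where the features share libraries and depth and are not independent. Between replicates it was 0.92 and 0.94, 0.97 and 0.98, and 0.95 and 0.98 (H3K27me2 and H3K36me2 in turn). The median log2 ratio was -0.44 over promoters, with -0.61 to -0.27 for the 4 pairings of single libraries. It was -0.10 over gene bodies (-0.19 to -0.02) and 0.71 over intergenic bins (0.49 to 0.92). The sign was the same in every pairing of libraries. After background subtraction (the 10th percentile of each library's bins taken off, lower values set to 0) the median over gene bodies was 0.0064, so its direction turned. An exact two-sided permutation test of each median gave p = 0.33, the smallest that 2 against 2 libraries allow.

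**Figure D1:**
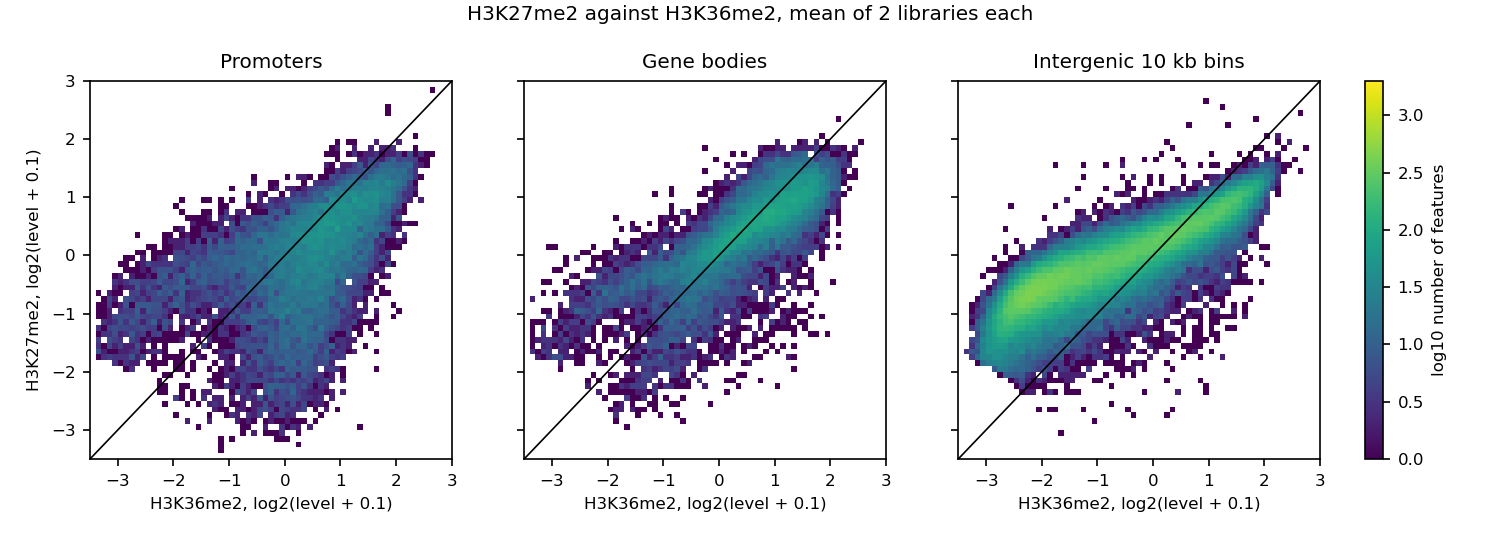
Mean level of H3K27me2 (vertical, log2(level + 0.1)) against that of H3K36me2 (horizontal, same scale) for tested promoters, gene bodies and intergenic bins; colour is log10 of the number of features and the line marks equal levels. Promoters spread to both sides of the line, with a lobe low in H3K27me2 at middle H3K36me2, and the poorest intergenic bins lie above the line.

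At promoters, H3K36me2 was higher at 6862 of 15912 (43.1%) and H3K27me2 at 2219 (13.9%). Parted 2-fold were 3856 promoters with more H3K36me2 (24.2%) and 1509 with more H3K27me2 (9.48%). After background subtraction 84.3% and 37.2% of these were still called in the same direction, and over all promoters 4281 promoters were called toward H3K36me2 and 818 toward H3K27me2. The adjusted p of a single feature comes from a spread that limma shares across features, and it leaves out shifts that a whole library makes, which the range over pairings above shows.

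The Pou5f1 promoter was the promoter furthest to the H3K36me2 side among those named by the rule of size. Its H3K27me2 level was 0.026 and 0.041 and its H3K36me2 level 2.77 and 1.96 (log2 ratio -4.19, SE 0.32, limma adjusted p = 9.8e-34). H3K27me2 was thus nearly absent there while H3K36me2 stood above the autosomal mean in both libraries. Next came Sh2d4b, an SH2 domain gene, with H3K27me2 at 0.051 and 0.062 and H3K36me2 at 1.93 and 1.74 (log2 ratio -3.63). Lrrc2, a leucine-rich repeat gene, had 0.154 and 0.154 against 3.28 and 2.6. Ncor1 had 0.051 and 0.021 against 1.57 and 1.19. The rule admits only features whose libraries do not overlap. It also named Triml2, Zscan10 (a zinc finger factor of pluripotent cells), Pml (the scaffold of PML nuclear bodies) and Rbm14 (an RNA-binding coactivator), whose log2 ratios ran from -3.43 to -3.40. All 8 promoters had H3K27me3 under 0.1 in both libraries, and H3K36me3 between 0.57 and 3.97.

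On the H3K27me2 side the same rule named 8 promoters. Olfr209 had H3K27me2 at 1.80 and 1.74 and H3K36me2 at 0.148 and 0.200 (log2 ratio 2.77, SE 0.31, limma adjusted p = 4.9e-17). Prl2c3, a prolactin-family hormone gene, had 1.64 and 1.66 against 0.130 and 0.185, and Scgb2b2, a secretoglobin, had 1.49 and 1.67 against 0.278 and 0.062. In these 3 promoters H3K27me2 was above the autosomal mean. It was below or near the mean in the other 5: Vmn2r54 (a vomeronasal receptor, 0.860 and 0.750), Chil4 (a chitinase-like protein, 0.680 and 1.02), Prss58 (0.642 and 0.986), Olfr679 (0.449 and 0.637) and Obox3 (an oocyte homeobox gene, 0.526 and 0.852), where H3K36me2 was at most 0.065. Several of these genes have near-identical copies, so reads may have been split among copies. After background subtraction, Olfr679 (adjusted p = 0.15) and Obox3 (adjusted p = 0.059) were no longer called. With DMSO libraries in place of the untreated H3K36me2 libraries the 8 promoters were still called, at smaller log2 ratios, from 0.72 (Obox3) to 2.55 (Chil4).

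The promoters parted 2-fold toward H3K36me2 had a low median of H3K27me3 and high medians of H3K36me3 and CG, readouts that the comparison did not use, although 26.6% lay in the authors' H3K27me3 peaks (38.8% of those that did not part). Their median H3K27me3 level was 0.11 and 0.09, against 0.52 and 0.53 over all promoters tested, and their median H3K36me3 level 1.51 and 1.47, against 1.09 and 1.06. Their median count of CG in the 300 bases was 20, and 81.1% had 10 or more, against a median of 15 and 60.2% over all tested. Promoters parted 2-fold toward H3K27me2 were low in CG and H3K36me3: their median was 1 CG, 8.08% had 10 or more, and H3K36me3 stood at 0.12 and 0.08. Their median H3K27me3 level was 0.33 and 0.44. Even their H3K27me2 was below the autosomal mean at 0.64 and 0.73. By deciles of CG count the median log2 ratio went from 0.98 (median 1 CG) through -0.32 (4 CG) to -0.67 (12 CG), and was -0.39 in the richest (40 CG).

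Against H3K27me3 the ratio at promoters had 2 low ends. In the decile of promoters with the least H3K27me3 the median log2 ratio was -1.49 (pairings -1.65 to -1.36), and 81.3% were called toward H3K36me2. In the sixth it was 0.07 (-0.11 to 0.24), where 26.3% were called toward H3K27me2 and 12.9% toward H3K36me2. In the decile with the most H3K27me3 it was again low, -0.95 (-1.06 to -0.85), with 68.9% called toward H3K36me2. H3K27me2 itself moved across these deciles over a wider range than H3K36me2. Its median level was 0.257 and 0.252 in the lowest, 1.59 and 1.47 in the eighth and 0.770 and 0.688 in the highest, while H3K36me2 was 1.04 and 0.848, 1.86 and 1.73, and 1.54 and 1.39 in the same deciles.

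H3K36me2 was higher at 5126 of 17176 (29.8%) and H3K27me2 at 3262 (19%). Parted 2-fold were 847 toward H3K36me2 (4.93%) and 971 toward H3K27me2 (5.65%), of which 93.3% and 55.6% were still called in the same direction after background subtraction. Of the calls, 38.9% were toward H3K27me2, and this share was 23.6% when each library was scaled to its median bin, where the median log2 ratio fell by 0.24 (also by 0.24 over promoters and by 0.19 over bins). Without the first H3K36me2 replicate, 3181 gene bodies were called toward H3K36me2, and after background subtraction 3194. With the DMSO libraries in place of untreated H3K36me2, 2048 were called toward H3K27me2.

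The rule named 8 gene bodies toward H3K36me2, of which 3 carried dense H3K27me3. It leaves out features over level 10 in any untreated library, H3K27me3 included, so the gene bodies densest in H3K27me3 could not be named. En1, a homeobox gene of the midbrain (chr1:120602487-120607991), had H3K27me2 at 0.200 and 0.283 and H3K36me2 at 2.66 and 2.11 (log2 ratio -2.86, SE 0.16, limma adjusted p = 2.6e-07), with H3K27me3 at 9.96 and 9.69. Hoxc8, a homeobox gene of the trunk, had 0.342 and 0.301 against 2.47 and 2.28, with H3K27me3 at 8.64 and 7.89. Nhlh2, a neuronal transcription factor, had 0.225 and 0.277 against 2.08 and 1.54, with H3K27me3 at 9.98 and 9.43. The other 5 held little H3K27me3 (at most 0.12): Tmem253, a transmembrane protein gene, Ifitm2 and Ifitm7, interferon-induced transmembrane genes, H2-M5, a class I-like histocompatibility gene, and Crlf2, a cytokine receptor. Tmem253 had the largest ratio of these 8, with H3K27me2 at 0.090 and 0.164, H3K36me2 at 1.61 and 1.49 and H3K36me3 at 3.64 and 3.66 (log2 ratio -2.88). H3K36me3 over the 5 was between 2.01 and 5.05, against 2.11 and 2.09 over all gene bodies tested.

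Toward H3K27me2 the rule named 8 gene bodies, led by the olfactory receptor gene Olfr630, with H3K27me2 at 0.899 and 0.863 and H3K36me2 at 0.148 and 0 (log2 ratio 2.64). Pate3, a gene of the PATE family (chr9:35645113-35648203), had H3K27me2 at 1.34 and 1.51 and H3K36me2 at 0.167 and 0.170 (log2 ratio 2.50, SE 0.14, limma adjusted p = 3.6e-07). Vmn1r58, a vomeronasal receptor, had 1.06 and 0.880 against 0.116 and 0.062, and Try4, a trypsin, had 0.852 and 0.969 against 0.082 and 0.111. Prl2c3, Pate5, Olfr181 and Obox3 had log2 ratios from 2.36 to 2.13. In the DMSO libraries H3K36me2 was higher over most of these genes than in untreated cells, for example 0.382 and 0.453 over Vmn1r58. These genes were chosen by their ratio in the untreated libraries, so this difference is no measure of an effect of DMSO. With DMSO libraries in place of the untreated H3K36me2 libraries the log2 ratio of Vmn1r58 was 1.05, and each of these 8 genes was still called. After background subtraction Pate5 was no longer called (adjusted p = 0.31).

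The 847 gene bodies parted 2-fold toward H3K36me2 had a median H3K27me3 level of 5.64 and 5.83, against 0.61 and 0.60 over all gene bodies tested, and 61.9% lay at least 50% in the authors' H3K27me3 peaks, against 29.8% of those that did not part. They were short, with a median of 7.12 kb. The 971 bodies toward H3K27me2 had H3K27me3 at 0.35 and 0.45 and H3K36me3 at 0.13 and 0.10, with H3K27me2 at 0.57 and 0.63 and H3K36me2 at 0.14 and 0.19. In the decile of gene bodies richest in H3K27me3 the median log2 ratio was -0.78 and 84.1% were called toward H3K36me2. By deciles of H3K36me3 the ratio ran from 1.03 in the poorest through -0.48 in the fifth to 0.19 (pairings -0.01 to 0.42) in the richest, where 33.8% were called toward H3K27me2 and 17.8% toward H3K36me2. After background subtraction these medians were 0.55, -0.27 and 0.47. At the poor end H3K27me2 was thus the relatively higher mark in every pairing of libraries, and at the rich end in some but not all.

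**Figure D2:**
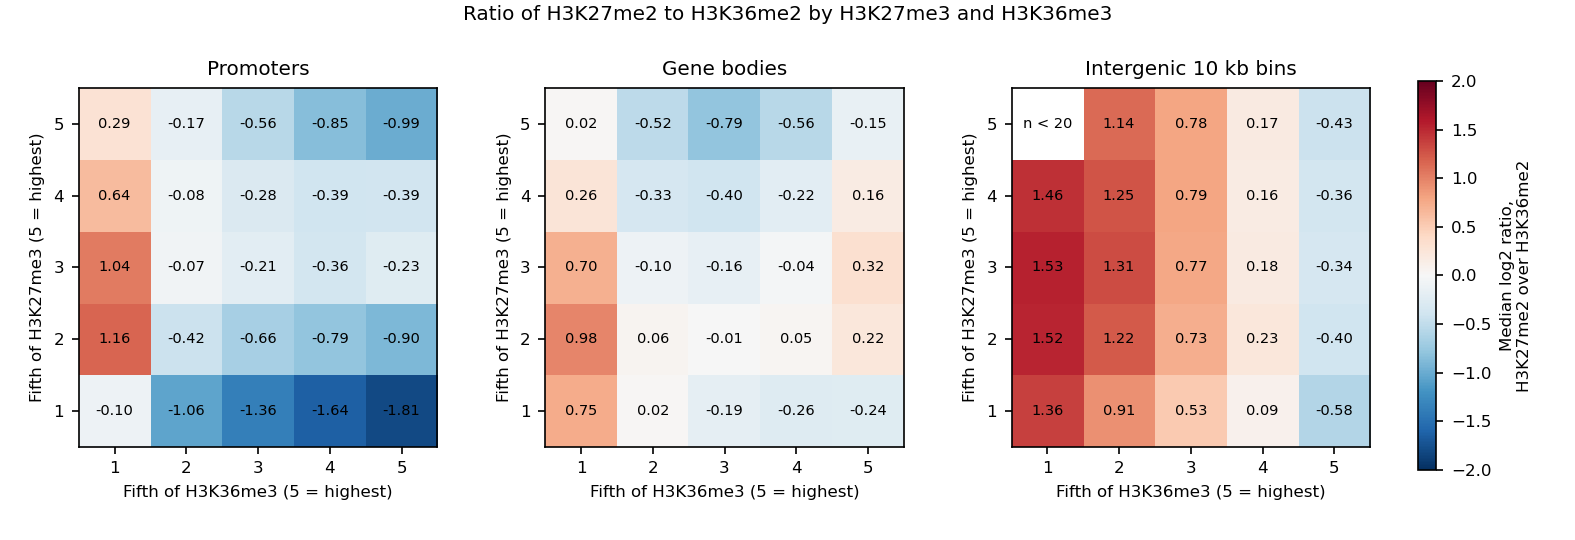
Median log2 ratio of H3K27me2 to H3K36me2 (colour and number) by 5 equal groups of H3K36me3 (horizontal) and of H3K27me3 (vertical) for promoters, gene bodies and intergenic bins; cells with under 20 features are blank. Promoters with much H3K36me3 and little H3K27me3 reach -1.81, and intergenic bins poor in H3K36me3 reach 1.53.

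Promoter and body of the same gene parted more often in the same direction than in opposite ones. Among 13546 genes tested for both, 2700 (19.9%) were called toward H3K36me2 and 848 (6.26%) toward H3K27me2 in both places. In 540 genes (3.99%) the promoter was called toward H3K36me2 and the body toward H3K27me2, and in 49 (0.36%) the reverse. Over all features tested, 43.1% of promoters and 29.8% of gene bodies were called toward H3K36me2, and 13.9% and 19% toward H3K27me2. These shares alone favour calls in the same direction, and promoter and body share windows at their border. Whether the counts exceed what the shares give was not tested. Kdm4a, an H3K36 demethylase gene, and Phf1, a PRC2-associated Tudor protein gene, are genes of the lists with much H3K36me3 and H3K27me2 called higher over the body. Kdm4a had H3K27me2 at 2.84 and 2.10 over its body and H3K36me2 at 1.31 and 1.08 (log2 ratio 0.98), with H3K36me3 at 9.19 and 10.6. Its promoter went the other way, with 0.603 and 0.554 against 1.25 and 0.986 (log2 ratio -0.84, limma adjusted p = 0.009). The Phf1 body had 3.43 and 2.73 against 1.47 and 1.71, and its promoter was not called (log2 ratio -0.29, adjusted p = 0.33).

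Over all genes the marks were apart 10 kb upstream (log2 ratio -0.25) and further apart at the start (-0.50). In H3K36me3-rich genes of untreated cells the marks crossed within the body on this scaling of the libraries. The 13546 genes were split by H3K27me3 at the promoter (1355 genes at a level of 6.62 or more) and the rest by H3K36me3 over the body: rich (4472 genes, 3.61 or more), poor (3818 genes, 1.3 or less) and middle (3901). At the start site of H3K36me3-rich genes both marks dipped, H3K27me2 to 0.851 and 0.703 and H3K36me2 to 1.51 and 1.16, from 1.64 and 1.44 and from 2.11 and 1.86 at 10 kb upstream. H3K36me2 was above H3K27me2 there (log2 ratio -0.77, pairings -1.10 to -0.45). At 5 kb into the gene the levels met (log2 ratio -0.02, pairings -0.25 to 0.20). Where levels meet depends on how the libraries were scaled.

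Over the bodies of H3K36me3-rich genes of at least 10 kb (3136 genes) the marks ran in opposite directions in untreated cells. With the body cut into 10 equal parts, from part 1 to part 9, H3K27me2 went from 1.41 and 1.21 to 1.79 and 1.5, and H3K36me2 from 1.93 and 1.68 to 1.45 and 1.25. These are log2 changes of 0.34 and 0.31 for H3K27me2 and of -0.41 and -0.42 for H3K36me2. Each is a ratio within a library and so does not depend on how libraries were scaled, and the difference was 0.74 (exact two-sided permutation p = 0.33). The crossing of levels does depend on scaling. In part 9 the log2 ratio was 0.28 (pairings 0.04 to 0.51). Scaling to the median bin lowered the median log2 ratio of all gene bodies by 0.24. In the treated cells the change of H3K36me2 differed between replicates. It was -0.22 and -0.28 in the first DMSO and inhibitor libraries, and 0.03 and 0.05 in the second ones. The change of H3K27me2 was above that of all 6 H3K36me2 libraries, although the level of the second DMSO library in part 9, 1.87, was above both H3K27me2 levels there. In H3K36me3-middle genes the changes were 0.13 and 0.15 for H3K27me2 against -0.07 and -0.09 for H3K36me2, and in H3K36me3-poor genes 0.07 and 0.08 against -0.01 and -0.01.

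**Figure D3:**
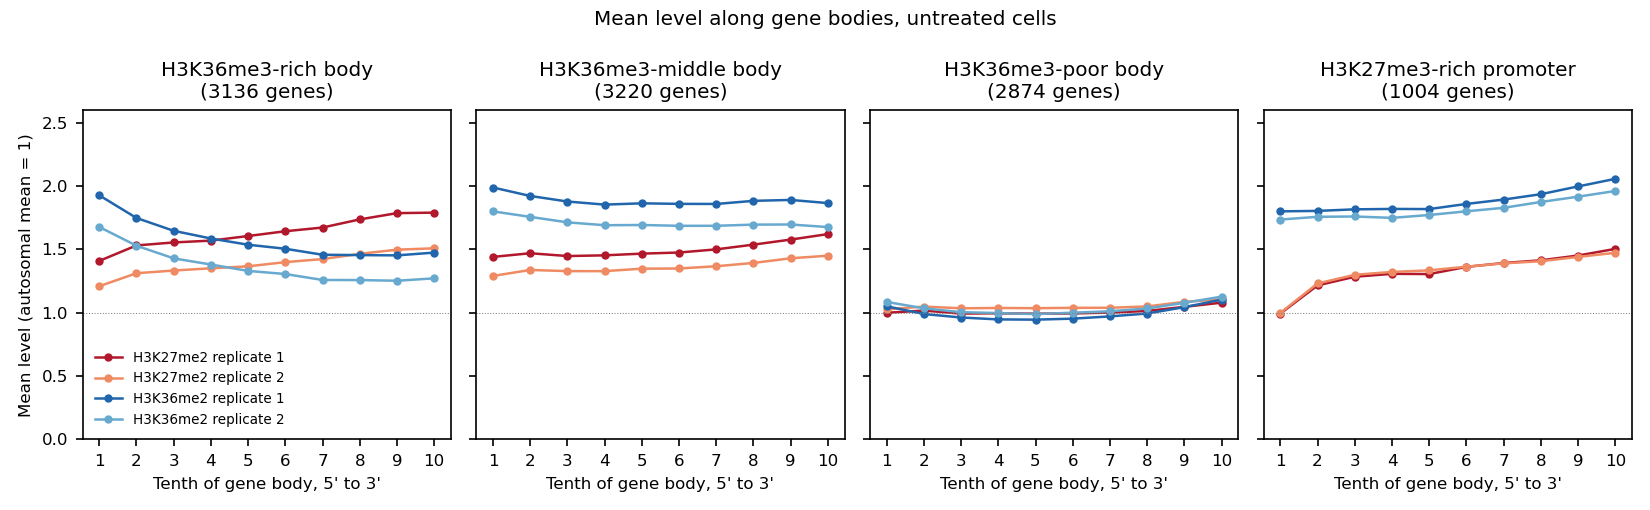
Mean level (vertical, autosomal mean = 1) by part of the gene body (horizontal, 10 equal parts, 5′ to 3′) in genes of at least 10 kb, for each H3K27me2 and H3K36me2 library of untreated cells. In H3K36me3-rich bodies the H3K27me2 lines rise from 1.41 and 1.21 to 1.79 and 1.5 by part 9 while the H3K36me2 lines fall. No such crossing appears in the H3K36me3-middle and H3K27me3-rich panels. In the H3K36me3-poor panel the lines lie close together and also cross, with a log2 ratio of -0.08 in part 1 and 0.07 in part 5. Where lines cross depends on how the libraries were scaled.

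At H3K27me3-rich promoters H3K27me2 was lower 1 kb into the gene than upstream, and H3K36me2 was not in untreated or DMSO libraries. At the start site itself H3K36me2 was 1.6 and 1.41, also below its upstream level. H3K27me2 went from 1.34 and 1.31 at 10 kb upstream to 0.730 and 0.678 at 1 kb into the gene, and H3K36me2 was 1.63 and 1.59 upstream and 1.84 and 1.68 at 1 kb. The log2 changes within a library were -0.88 and -0.95 for H3K27me2 and 0.18 and 0.08 for H3K36me2. They were 0.10 and 0.16 in the DMSO libraries of H3K36me2, -0.08 and 0.10 in the inhibitor libraries, and 1.87 and 1.85 for H3K27me3. These genes were chosen by H3K27me3 at the promoter, so its height there is no finding. The lowest H3K27me2 was at 1 kb, with no hollow of that depth in any H3K36me2 library. By 10 kb into the gene H3K27me2 was back at 1.33 and 1.31.

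**Figure D4:**
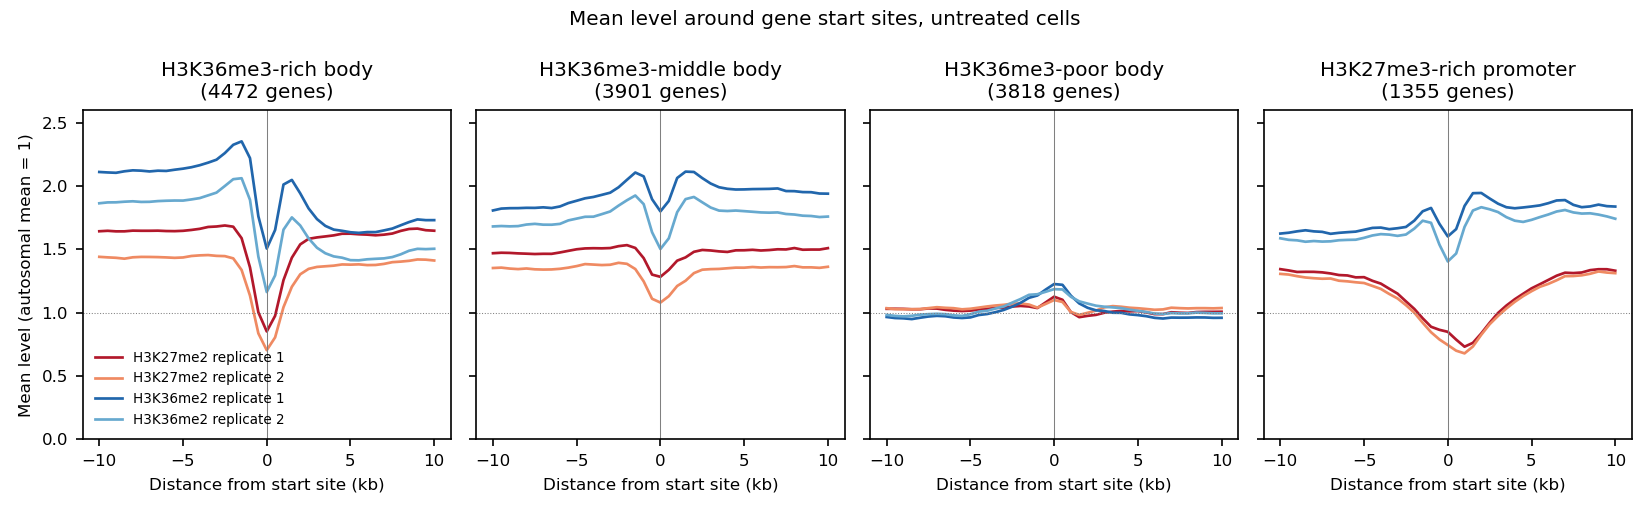
Mean level (vertical, autosomal mean = 1) from 10 kb before to 10 kb after the start site (horizontal, kb, in the direction of transcription) for each untreated library of the 2 marks, in 4 groups of genes. Both marks dip at the start of H3K36me3-rich genes, and at H3K27me3-rich promoters H3K27me2 dips to 0.730 and 0.678 at 1 kb while H3K36me2 stays at 1.84 and 1.68.

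Gene lists were chosen with earlier results of these data known and are described by counts and medians, to be read against the shares over all features tested: 43.1% of promoters and 29.8% of gene bodies toward H3K36me2, and 13.9% and 19% toward H3K27me2. After background subtraction these shares were 26.9% and 18.6% toward H3K36me2, and 5.14% and 14.2% (2438 gene bodies) toward H3K27me2, and subtracted counts of list members are to be read against them. Hox cluster genes, which pattern the body axis, lay on the H3K36me2 side: of 33 genes, 17 of 22 promoters tested and 24 of 25 gene bodies were called toward H3K36me2 and 0 toward H3K27me2, with medians of -1.61 and -1.64. After background subtraction the calls were 12 and 19. At the Hoxa7 promoter (chr6:52217573-52219573) H3K27me2 was 0.449 and 0.462, H3K36me2 4.46 and 3.24 and H3K27me3 10.7 and 12.2 (log2 ratio -2.81). Hoxa13 was not called, with 0.834 and 0.493 against 0.890 and 0.709 (log2 ratio -0.27, limma adjusted p = 0.46). Of other developmental transcription factors repressed by PRC2, 16 of 18 promoters and 27 of 28 gene bodies were called toward H3K36me2. Hand1, a factor of heart and trophoblast, had 0.308 and 0.260 over its body against 3.98 and 3.37 (log2 ratio -3.29). Neurog2, a neurogenic factor, was the exception among these promoters: H3K27me2 was 0.501 and 0.554 and H3K36me2 0.306 and 0.185 (log2 ratio 0.88, adjusted p = 0.019), and after background subtraction it was not called.

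Pluripotency, ribosomal protein and housekeeping genes, which held little H3K27me3, lay on the same side. Pluripotency factors had 11 of 13 promoters and 11 of 16 gene bodies called toward H3K36me2 (43.1% and 29.8% over all features), with medians of -1.94 and -0.71. The promoter of Tfcp2l1, a naive-state transcription factor, had H3K27me2 at 0.218 and 0.185 and H3K36me2 at 2.41 and 1.53, and that of Nanog had 0.154 and 0.503 against 1.75 and 1.26. Lin28a, an RNA-binding protein, was not called at its promoter (2.07 and 1.95 against 2.19 and 1.74). Prdm14, a repressor of differentiation signals, was the one body called toward H3K27me2 (1.25 and 1.22 against 0.944 and 0.973). Cytosolic ribosomal protein genes had 53 of 57 promoters and 37 of 42 gene bodies called toward H3K36me2 and 0 toward H3K27me2. Their bodies held little of either mark, with medians of 0.11 and 0.17 for H3K27me2 and 0.45 and 0.37 for H3K36me2, beside H3K36me3 at 8.03 and 7.67. Housekeeping genes had 12 of 14 promoters and 9 of 16 gene bodies on that side.

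Genes of both methylation systems were counted against the same 43.1% of promoters and 29.8% of gene bodies. PRC2 subunits and the H3K27 demethylase had 8 of 10 promoters and 8 of 11 gene bodies called toward H3K36me2, among them the promoters of Suz12, a PRC2 core subunit (0.064 and 0.144 against 0.834 and 0.755), and Ezh2 (0.103 and 0.205 against 0.695 and 0.509). For H3K36 methyltransferases and demethylases it was 3 of 5 promoters and 2 of 11 gene bodies, with 1 body toward H3K27me2. Nsd1, which dimethylates lysine 36, had 0.198 and 0.244 over its body against 0.497 and 0.496 (log2 ratio -0.90). Dnmt3a, a de novo DNA methyltransferase, stood apart among the DNA methylation and Tet genes. Its promoter (chr12:3805980-3807980) was called toward H3K27me2, with 2.75 and 1.79 against 0.760 and 0.678 (log2 ratio 1.5, SE 0.26, limma adjusted p = 6.2e-08), while 5 of the 8 promoters were called toward H3K36me2. This is the start nearest the 5′ end of Dnmt3a, and any other start of the gene was not measured. Uhrf1, a cofactor of maintenance DNA methylation, was at the other end with 0.385 and 0.421 against 2.57 and 2.59.

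The lists furthest toward H3K27me2 over gene bodies were sensory receptors and long neuronal genes, with gene body H3K36me3 medians of at most 0.17. Olfactory receptor genes had 659 of 922 promoters and 107 of 128 gene bodies called toward H3K27me2, against 22 and 4 toward H3K36me2, with medians of 1.13 and 1.24. Vomeronasal receptor genes had 184 of 217 promoters and 105 of 113 gene bodies, against 1 and 2. Median levels at olfactory receptor promoters were 0.68 and 0.77 for H3K27me2 and 0.21 and 0.29 for H3K36me2. After background subtraction 221 of the olfactory and 39 of the vomeronasal promoters were called toward H3K27me2, and of the gene bodies 47 and 36. Toward H3K36me2 the counts were then 32 and 5 promoters and 7 and 7 gene bodies. Long neuronal genes had 16 of 20 gene bodies called toward H3K27me2 and 0 toward H3K36me2, and after background subtraction 9 and 1. Of their promoters 3 of 11 were called toward H3K27me2 and 0 toward H3K36me2, and after background subtraction 1 and 3. Nrxn3, a synaptic adhesion gene, had 0.600 and 0.701 against 0.169 and 0.246 (log2 ratio 1.3), whereas Cdh13, a cadherin, was not called (1.35 and 1.45 against 1.41 and 1.55).

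Zfp zinc finger genes had 185 of 309 promoters called toward H3K36me2 and 7 toward H3K27me2, against 43.1% and 13.9% of all promoters, while over 366 gene bodies the counts were 94 and 63, near the 29.8% and 19% of all gene bodies. Germline genes had 11 of 13 promoters toward H3K36me2, with a median H3K27me3 of 6.65 and 5.69, and over 14 gene bodies 2 toward H3K36me2 and 5 toward H3K27me2. After background subtraction 4 of these promoters were called toward H3K36me2 and 0 of these bodies toward H3K27me2. Imprinted genes split at their promoters, with 5 of 15 toward H3K36me2 and 4 toward H3K27me2. The latter included Gnas, a G protein subunit gene (2.04 and 1.58 against 0.890 and 0.601), and Peg3, a zinc finger gene (1.75 and 1.21 against 0.667 and 0.509). Each gene was read only at the start nearest its 5′ end, and other starts may differ. Of 16 imprinted gene bodies 8 were called toward H3K36me2 and 2 toward H3K27me2, and after background subtraction 5 and 1. Keratin genes had 15 of 35 promoters and 19 of 48 gene bodies toward H3K36me2, against 0 and 7 the other way, so the promoters were near the 43.1% of all promoters, and after background subtraction 7 promoters and 11 gene bodies were called toward H3K36me2 and 0 and 3 toward H3K27me2. Clustered protocadherin genes, which have no promoter value here, had 30 of 51 gene bodies toward H3K36me2 and 13 toward H3K27me2, although gene bodies in that cluster overlap and share reads. After background subtraction 10 were called toward H3K36me2 and 0 toward H3K27me2. Cytochrome P450 genes (22 and 18 of 74 promoters toward H3K27me2 and H3K36me2), defensin genes (9 and 2 of 31), keratin-associated protein genes (23 and 1 of 51), formative and primed genes (1 and 2 of 7, the 1 being Dnmt3a) and fibroblast genes (0 and 1 of 4) were the others. After background subtraction the promoters called toward H3K27me2 were 14 for cytochrome P450, 2 for defensin, 7 for keratin-associated protein and 2 for imprinted genes, and those toward H3K36me2 were 8, 1, 1 and 5.

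**Figure D5:**
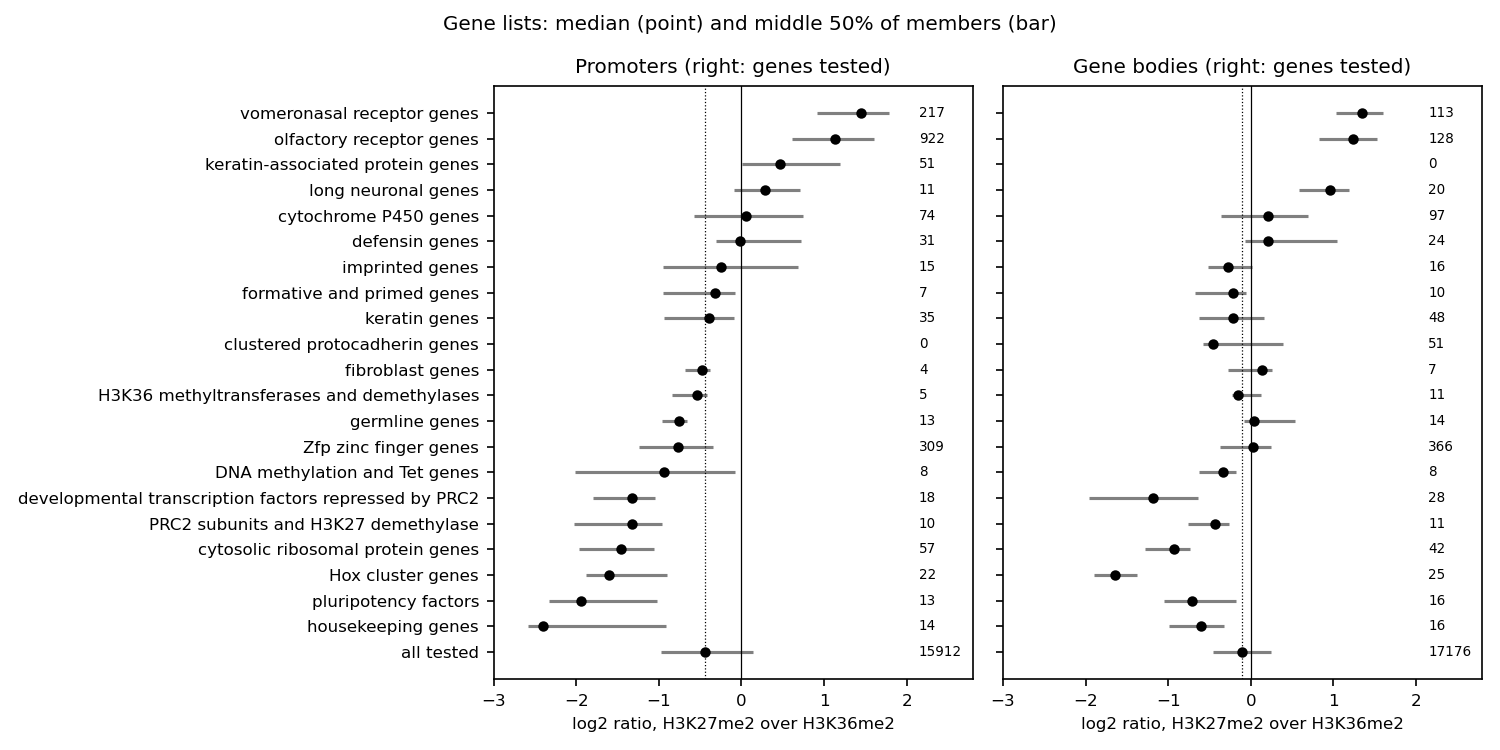
Log2 ratio of H3K27me2 to H3K36me2 (horizontal) of promoters and gene bodies by gene list; points are medians over the tested members, bars the middle 50% of members, the dotted line the median of all tested and the numbers the members tested. Medians run from -2.40 for housekeeping promoters to 1.45 for vomeronasal receptor promoters.

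Between genes, H3K27me2 was the relatively higher mark over most of the sequence. It was higher in 57560 of 94946 bins (60.6%) and H3K36me2 in 13596 (14.3%). Parted 2-fold were 36796 bins toward H3K27me2 (38.8%) and 910 toward H3K36me2 (0.958%). The bins toward H3K27me2 were not places of H3K27me2 enrichment: their median level was 0.55 and 0.61 for H3K27me2 and 0.12 and 0.16 for H3K36me2, and 1.14% lay at least 50% in the authors' H3K27me2 peaks, against 31.7% of bins that did not part 2-fold. The lowest levels that the libraries reach differ between the marks. The 10th percentile of all bins was 0.418 and 0.466 for H3K27me2 and 0.102 and 0.139 for H3K36me2. No input library was used here, so the counts were taken again with that percentile subtracted from each library and lower values set to 0. They were then 10609 toward H3K27me2 and 4233 toward H3K36me2, the median log2 ratio 0.27, and of the 36796 bins 24.2% were still called and 44 were called the other way. Of the 910 bins 74.6% were still called. A bin under that percentile in both libraries of both marks had a ratio of 0 after subtraction and could not be called.

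The 3 bins named toward H3K27me2 were unlike the 36796 as a group, whose median H3K27me1 level was 0.62 and 0.69. In chr13:12840001-12850000, 14.1 kb from the nearest gene, H3K27me2 was 2.68 and 2.81 and H3K36me2 0.180 and 0.222 (log2 ratio 3.25), beside H3K27me1 at 4.39 and 4.61. In chr13:12960001-12970000, 26.1 kb from a gene, it was 1.53 and 1.84 against 0.057 and 0.089, and in chr7:10010001-10020000 it was 1.31 and 1.3 against 0.052 and 0.077. Both bins on chromosome 13 lie close to Prl2c3 (chr13:12790816-12800093), named above at its promoter and body, so these are not separate examples. In these 3 bins H3K27me2 was above the autosomal mean. In DMSO cells H3K36me2 was several times its untreated level there, for example 0.991 and 0.824 in the first bin, and with those libraries the log2 ratio of that bin was 1.5. The bins were chosen by their ratio in the untreated libraries, so this difference is no measure of an effect of DMSO. The 10th percentile of all bins was also higher in the DMSO libraries (0.168 and 0.161) than in the untreated H3K36me2 libraries (0.102 and 0.139). The part of either in the difference was not tested.

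Toward H3K36me2 the furthest bins had almost no H3K27me2 or H3K27me3 and levels of H3K36me3 near 1. In chr17:31800001-31810000, 15.4 kb from a gene, H3K27me2 was 0.074 and 0.123 and H3K36me2 2.14 and 1.54 (log2 ratio -3.28, SE 0.23), and in the DMSO libraries H3K36me2 was 1.54 and 1.69. In chr7:3200001-3210000 it was 0.080 and 0.144 against 1.88 and 1.75, and in chr8:84650001-84660000, 1.33 kb from a gene, 0.054 and 0.066 against 1.29 and 1.08. The 910 bins as a group had H3K27me2 at 0.84 and 0.83 and H3K36me2 at 2.45 and 2.16, H3K36me3 at 1.59 and 1.53, and H3K27me3 at 0.14 and 0.14. Their median distance from a gene was 8.15 kb, and 55.8% were within 10 kb, against 50.4 kb and 16.1% for the bins toward H3K27me2. In the authors' peak lists 84.9% lay in H3K36me2 peaks, against 33.4% of bins that did not part, and 54.2% in H3K27me1 peaks, against 15.7%. The H3K36me2 peaks come from the libraries that set the direction of these bins, so that share is no independent readout.

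The ratio between genes was higher farther from genes. By deciles of distance the median log2 ratio went from 0.12 (median 1.36 kb) to 0.56 (22.5 kb) and 1.28 (212 kb), and after background subtraction from 0.05 to 0.25 and 0.52. Both marks fell with distance, H3K36me2 the more: H3K27me2 from 0.996 and 1.06 to 0.531 and 0.583, and H3K36me2 from 0.873 and 0.999 to 0.137 and 0.185. By deciles of H3K36me3 the ratio went from 1.49 to -0.55, and 80.1% of the bins in the highest were called toward H3K36me2. After background subtraction the lowest decile had a median of 0, the third 0.99 and the highest -0.30. In the lowest decile the median levels of both marks lay under the subtracted percentiles, so values were set to 0 there. That 0 comes from this step, and the order of the lowest deciles after subtraction cannot be read. The longest run of neighbouring bins parted toward H3K27me2 was 860 kb (chr5:40480001-41340000), and that toward H3K36me2 was 60 kb (chr10:83370001-83430000), with H3K36me3 at 5.19 and 6.17. Run lengths depend on the share of bins parted each way, 38.8% and 0.958%, and were not compared. Among autosomes the share parted 2-fold toward H3K27me2 ran from 25.6% on chromosome 13 to 51.6% on chromosome 16.

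H3K36me2 after EZH2 inhibition was read at the parted features, on levels relative to each library's autosomal mean, which cannot show a change of the whole genome. At intergenic bins parted toward H3K27me2 the mean H3K36me2 level was 0.227 and 0.225 after DMSO and 0.334 and 0.335 after the inhibitor, a log2 change of 0.56 (pairings 0.55 to 0.57), against 0.03 at bins that did not part. At such promoters it was 0.348 and 0.343 against 0.420 and 0.430 (0.30), and at such gene bodies 0.352 and 0.376 against 0.430 and 0.463 (0.29). Over all gene bodies called toward H3K27me2, with no fold limit, the change of the mean level was -0.0064. Their median level was 0.65 and 0.65 after DMSO and 0.73 and 0.75 after the inhibitor, so the reading depends on mean or median. At features parted toward H3K36me2 the changes were -0.18 at promoters, -0.14 at gene bodies and -0.15 at bins, against -0.17, -0.13 and 0.03 at those that did not part. So the relative H3K36me2 level was higher after the inhibitor at features parted 2-fold toward H3K27me2, in both libraries in each class, and each exact two-sided permutation test gave p = 0.33, the smallest possible. The 10th percentile of bins moved in the same direction, from 0.168 and 0.161 after DMSO to 0.25 and 0.245 after the inhibitor, and its part in the result was not tested.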

How the data were processed

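The deposited tracks hold, per their values, log2(1 + RPM), a log2 value per 1 kb window placed every 500 bp, which the authors computed from their alignments. Tracks of treated cells carry a factor per library that the division below cancels. The submitters' processing notes name mm10, Trim Galore 0.4.2, Bowtie2 2.2.6.2 and SICER. Values were linearised, and whole reads were recovered in 100% of windows at a tolerance of 0.02. Read totals over autosomal windows were 48.0 M and 60.0 M (H3K27me2) and 66.4 M and 39.9 M (H3K36me2). The authors' deposited peak lists carry a score per peak, which was not used, and hold peaks found in both replicates of a mark, per the deposited description. Windows with a midpoint in a feature were averaged and divided by the library's autosomal mean. Features came from RefSeq tables of GRCm38.p6. Of 20661 autosomal protein-coding genes 4205, among them all genes of chromosome 18, had no promoter entry and have no promoter value, and their bodies were trimmed by 1 kb at both ends, others at the start only.

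The 2 H3K27me2 and 2 H3K36me2 libraries were compared with limma 3.58.1 (R 4.3.3, eBayes with trend, pseudocount 0.1, filter at a mean level of 0.1, no block), with Benjamini-Hochberg adjustment within each class. Fold changes on this scale understate those of low features. Simulated gene bodies were used as a test: 94 of 94 changed 2-fold and 106 of 106 changed 4-fold were called, with 9 unchanged ones. The simulated noise was independent and of the same spread for every gene body, without shifts of a whole library. The test therefore does not give the error rate of the real calls. Replicates differed by more than sampling noise (chi-square per degree of freedom of 3.12 and 4.03 over bins) and were kept apart. Named features were the 8 promoters, 8 gene bodies and 3 bins of largest ratio in each direction with libraries that do not overlap, leaving out Gm, LOC and Rik symbols, features over level 10 in any untreated library and features under level 0.5 in the higher mark, with at most 2 of a family. Members of gene lists were added. Members, lists and rules were chosen with earlier results of these data known. Alternatives were other pseudocounts, filters, scalings, feature sizes, variance models, limma-voom on recovered reads, DMSO libraries of H3K36me2, a replicate block and leaving out each library. Background subtraction with the DMSO libraries together was added after seeing the data.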

Additional observations from a re-analysis of the deposited data

Results flagged for a closer look

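Chromosome X was left out of every comparison, and its signal is given here because it lies outside the main measurement. Its mean level relative to the autosomal mean was 0.32 for H3K27me2 (0.313 and 0.326 in the 2 libraries) and 0.23 for H3K36me2 (0.221 and 0.239). The other untreated marks were low there too: 0.40 and 0.40 for H3K27me1, 0.19 and 0.21 for H3K27me3, and 0.24 and 0.21 for H3K36me3. Levels were not corrected for the number of X copies per cell. The H3K27me2 libraries were above the H3K36me2 libraries, the direction of the intergenic bins on autosomes, and the difference was not tested.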

How the results depend on the processing

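Background subtraction changed the counts to 818 promoters toward H3K27me2 and 4281 toward H3K36me2, 3194 gene bodies toward H3K36me2, and 10609 and 4233 bins. It turned the median log2 ratio of gene bodies to 0.0064. With the DMSO libraries of H3K36me2 as well, the counts were 675 and 4484 promoters, 1384 and 3275 gene bodies, and 11985 and 4248 bins. With the DMSO libraries alone, 2048 gene bodies were called toward H3K27me2, and with scaling to the median bin 1744. The median log2 ratio of intergenic bins was 0.41 with a pseudocount of 0.5 and 0.84 with 0.01, against 0.71 with 0.1. Bins at least 10 kb from any gene gave 6758 calls toward H3K36me2, from 69462 bins tested. Leaving out 1 library at a time gave 3181 to 4301 gene bodies toward H3K36me2. Over all calls at an adjusted p under 0.05, gene bodies toward H3K27me2 had a change of the mean H3K36me2 level after the inhibitor of -0.0064. Their median level went from 0.65 and 0.65 after DMSO to 0.73 and 0.75. The cause was not tested in any of these. The labels do not say whether replicate numbers pair libraries of different marks, and 2 pairs cannot decide it. Same-numbered deviations correlated at 0.229, 0.491 and 0.301 over promoters, gene bodies and bins. The replicate block gave 2605 and 8069 promoters, 4594 and 7256 gene bodies, and 61543 and 16125 bins. Of the 38 named features none changed direction under any alternative, and those not called after background subtraction were 3, or 4 with the DMSO libraries. They were chosen for the largest ratios and for libraries that do not overlap. A change of direction was therefore hardly possible, and its absence says little of other features. Exact tests of 2 against 2 libraries cannot pass 0.05 and say nothing of stability.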
